A study of Homo sapiens with 5 samples.

Results

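The last stretch of the long arm of chromosome 18, from NARS1 to PARD6G next to the end of the arm, was examined as 47 named genes of the 19775 genes that the array could name. The genes were chosen by the difference between the PRL-1 and vector arrays of these same data and are listed in chromosome order, so that difference is described here and is not used as a test of anything. HEK293 is a line derived from human embryonic kidney. The 2 groups were HEK293-PRL-1 cells, which stably carry pcDNA4-PRL-1 (n = 2 arrays), and HEK293-vector cells, which stably carry the empty pcDNA4 plasmid (n = 3 arrays). PRL-1, the product of PTP4A1, is a small prenylated tyrosine phosphatase. Per the methods, each array had RNA of an independent culture. The authors left out a further PRL-1 array, as by qRT-PCR its sample had PRL-1 at a level no different from that of controls. Each construct is represented by cultures of a stable line. Effects of the transgene therefore cannot be told apart from those of line selection, and the spread given below is that between cultures.

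Neighbouring genes of a chromosome arm need not share a function, and those of distal 18q do not. They include BCL2, whose protein holds back the release of cytochrome c from mitochondria, and PMAIP1, whose product NOXA opposes proteins of that family. Others encode enzymes of the endoplasmic reticulum, endosomal ATPases, zinc finger proteins, cadherins and receptors of neurons or immune cells, and several of these are silent in most tissues. What the members share by definition is their place. The arrays measured RNA, and no measurement of DNA was used here. In such extracts fewer cells that express a gene and less RNA of it per cell cannot be told apart.

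Signals are MAS5 intensities, on a linear scale and scaled to the same trimmed mean on all arrays. Each gene is represented by its brightest probe set, judged by the log2 signal averaged across the 5 arrays. Differences are on the log2 scale, PRL-1 minus vector, with the standard error of the limma fit. A gene was called bright when that mean was 8 or more, which held for 35 members, and dim otherwise, which held for 12. MBP and BCL2, both at 8.01, lay just inside this limit and CTDP1, at 7.93, just outside, with log2 differences of 0.65, 0.18 and 0.62. The brightest PTP4A1 probe set gave 7914 and 7239.5 on the arrays labelled PRL-1, against 7463, 7533 and 6807 on the vector arrays, so the groups overlapped and directions below refer to the label. The study describes the line as one that overexpresses PRL-1, and no source used here says whether this probe set detects the transcript of the transgene. Vector replicate 3 correlated at 0.9385 to 0.9474 with the other arrays, which correlated at 0.9542 to 0.9643 among themselves. Of the HEK293 markers, NEFL, VIM, KRT8 and KRT18 were above 800 on every array, INA, PAX2 and EYA1 were above 200 on every array, LHX1 was on either side of 100 and NEFM was below 100 on every array. Of 7 genes that mark other cell types, PTPRC (leukocytes) and ALB (hepatocytes) were below 100 on every array, COL1A1, CD3E and PECAM1 were above it on every array, and COL3A1 and MYH7 were on either side of it.

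Read along the chromosome, the members fell into 2 runs on either side of ZNF532, a division made after the values were seen. The 41 members from SEC11C to PARD6G held 31 bright genes, with a median log2 difference of 0.47, which is 1.38-fold, and quartiles of 0.23 and 0.57. Of these, 30 lay above 0, and in 23 both arrays labelled PRL-1 exceeded all 3 vector arrays. The exception below 0 was ZNF236, at -0.07 in its brightest probe set. Among all 10163 bright genes of the array 48.9% lay above 0 and 17.1% had the groups apart with PRL-1 higher, and the median was -0.01. As the same contrast chose the members, nothing is read from the distance between these shares.

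The 4 bright members from NARS1 to MALT1 lay at or below 0, with a median of -0.21 and a range of -0.42 to -0.01. This common sign rested on single arrays. Without vector replicate 3 the median was -0.01, with ATP8B1 at 0.34 and NEDD4L at 0.11, and without PRL-1 replicate 1 it was -0.03, with ATP8B1 at 0.34 and NEDD4L at 0.25, whereas NARS1 and MALT1 were below 0 with any array left out. In NARS1 and MALT1 the groups were apart with PRL-1 lower, as they were in 17.1% of all bright genes. The sign thus differed between MALT1, a paracaspase of NF-κB signalling, and SEC11C, with ZNF532 between them in the chromosome order. MALT1 gave 778 and 634 on the arrays labelled PRL-1, against 988, 909 and 929.5 on the vector arrays, a log2 difference of -0.42 ± 0.14. Its other bright probe sets gave -0.51 ± 0.17, with the groups apart, and -0.18 ± 0.14, with the groups overlapping. SEC11C, a catalytic subunit of signal peptidase, gave 2425 and 2609 on the arrays labelled PRL-1, against 1674, 1750.3 and 1731 on the vector arrays, a log2 difference of 0.55 ± 0.11. Its vector signals lay close together, and both arrays labelled PRL-1 were well above them.

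**Figure D1:**
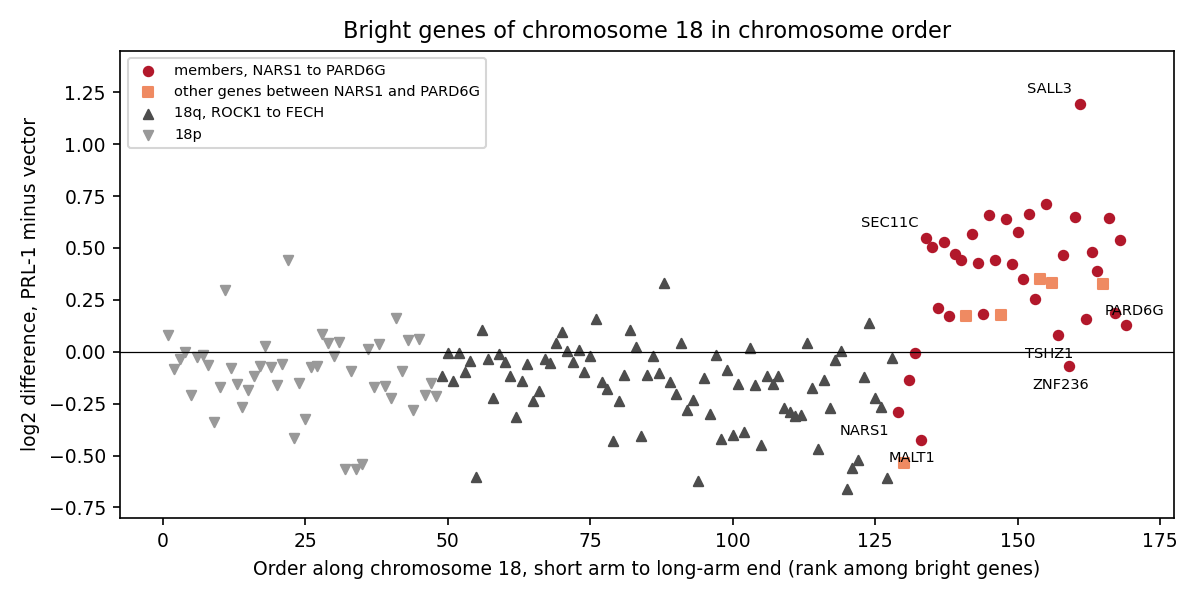
Log2 difference (PRL-1 minus vector) of the bright genes of chromosome 18, in order from the short arm to the end of the long arm, with members as red circles, other genes of the same stretch as orange squares and the rest of the chromosome as triangles. The red circles from SEC11C on have quartiles of 0.23 and 0.57, with SALL3 highest at 1.20, whereas NARS1 to MALT1 lie at or below 0.

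ZNF532, which encodes a zinc finger protein, was dim and lies between the runs. Its brighter probe set gave 216 and 192 on the arrays labelled PRL-1, against 25.5, 9.6 and 25.2 on the vector arrays. Every vector array was under a signal of 100, so with that group set to 100 the gene was at least 2.04-fold higher with PRL-1. The remaining ZNF532 probe set gave 96.2 and 98.5 on the arrays labelled PRL-1, against 18.2, 18.1 and 13.6 on the vector arrays, all under 100 but again with the groups apart. The brighter one passed the filter on low signals only through the arrays labelled PRL-1 and was not called in the fit over all probe sets.

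To show the start regions where the sign changed, promoter windows of MALT1, ZNF532 and SEC11C are printed with that of SALL3, the bright member with the largest difference. They run from 250 bases before to 50 bases after the start that RefSeq uses for each gene on GRCh38.p14, all on the plus strand, at chr18:58671215-58671514, chr18:58864627-58864926, chr18:59139634-59139933 and chr18:78979568-78979867. For ZNF532 that start lies 1953 bases inside the outermost start of the gene. Capitals mark matches to a GC box, spelled GGGCGG, to the CCAAT box, which is named by its letters, to a TATA box with the spelling TATAAA, and to an ETS site, for which the letters CCGGAAG were used, all searched on both strands, and neighbouring matches can overlap, as a CCAAT box and a GC box do in MALT1.
MALT1: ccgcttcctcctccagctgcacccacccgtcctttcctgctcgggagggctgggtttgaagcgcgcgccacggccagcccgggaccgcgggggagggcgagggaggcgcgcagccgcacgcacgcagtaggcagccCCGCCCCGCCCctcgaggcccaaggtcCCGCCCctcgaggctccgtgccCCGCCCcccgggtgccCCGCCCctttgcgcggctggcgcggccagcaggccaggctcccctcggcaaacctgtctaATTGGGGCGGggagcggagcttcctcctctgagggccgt
ZNF532: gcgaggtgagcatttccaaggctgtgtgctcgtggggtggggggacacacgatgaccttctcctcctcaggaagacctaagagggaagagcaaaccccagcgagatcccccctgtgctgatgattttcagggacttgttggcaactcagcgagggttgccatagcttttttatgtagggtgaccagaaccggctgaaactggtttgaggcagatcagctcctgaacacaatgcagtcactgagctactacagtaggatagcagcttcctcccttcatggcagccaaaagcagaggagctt
SEC11C: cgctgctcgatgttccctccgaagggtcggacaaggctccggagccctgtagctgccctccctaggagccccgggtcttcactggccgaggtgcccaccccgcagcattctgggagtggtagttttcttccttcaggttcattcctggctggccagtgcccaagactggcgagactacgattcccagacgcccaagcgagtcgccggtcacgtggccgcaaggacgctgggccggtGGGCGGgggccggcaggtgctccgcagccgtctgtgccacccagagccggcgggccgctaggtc
SALL3: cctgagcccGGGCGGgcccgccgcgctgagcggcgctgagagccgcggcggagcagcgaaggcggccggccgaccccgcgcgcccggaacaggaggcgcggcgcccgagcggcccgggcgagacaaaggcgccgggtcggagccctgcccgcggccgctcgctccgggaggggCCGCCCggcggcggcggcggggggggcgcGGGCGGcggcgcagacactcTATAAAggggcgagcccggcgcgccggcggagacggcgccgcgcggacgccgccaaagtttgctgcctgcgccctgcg

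The MALT1 window held 6 GC boxes and 33 CpG dinucleotides, that of SEC11C 1 and 25, and that of SALL3 3 and 59 with a TATA box, whereas the ZNF532 window held 0 GC boxes and 6 CpG dinucleotides. RefSeq windows were matched for 42 of the 47 members. In both bright and dim members, some of these windows lie inside the outermost start of the gene, as in ZNF532. They lie 211290 bases inside it in NEDD4L and 116653 in MBP, both bright, and 94179 in CBLN2 and 13900 in CD226, both dim. PIGN and RELCH have nearly the same window on opposite strands, and each is counted. The shares below are thus of RefSeq starts, not all of them outermost. A GC box was found in 74.2% of the 31 windows of bright members and in 45.5% of the 11 windows of dim members, against 56.3% of 22199 windows of all protein-coding genes. The median number of CpG dinucleotides was 31 in bright members, 8 in dim members and 21 over all. A CCAAT box was found in 35.7% of members and 34.7% of all windows, a TATA box in 4.76% and 9.47%, and an ETS site in 4.76% and 12.8%. These matches describe the letters of the windows, not sites that are used.

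Among the 5 members of protein synthesis and the secretory pathway, all bright, 4 lay above 0. LMAN1, a lectin that carries glycoproteins out of the endoplasmic reticulum, gave 9801 and 8608 on the arrays labelled PRL-1, against 6458, 6980.2 and 6023 on the vector arrays, a log2 difference of 0.50 ± 0.12. Its other probe sets gave 0.68 ± 0.25 and 0.98 ± 0.18, and in all 3 the groups were apart. TMX3, a thiol oxidoreductase of the endoplasmic reticulum membrane, gave 1899 and 1860.4 on the arrays labelled PRL-1, against 1170.4, 1175 and 1281 on the vector arrays, a difference of 0.64 ± 0.12. Both arrays labelled PRL-1 were nearly equal and stood well above the vector arrays. PIGN, which adds ethanolamine phosphate to glycosylphosphatidylinositol anchors, gave 656 and 691 with PRL-1, against 553, 571 and 678 with vector, a difference of 0.17 ± 0.15 with overlapping groups. NARS1, the cytosolic asparaginyl-tRNA synthetase and the only one of these 5 before ZNF532, gave 10549 and 10280.4 on the arrays labelled PRL-1, against 11255, 11714 and 15659 on the vector arrays. Its difference was -0.29 ± 0.15, with the groups apart and vector replicate 3 far above the other vector arrays.

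The 5 members of membrane lipid transport and endosomes were bright, and 4 lay above 0. VPS4B, the ATPase that takes apart ESCRT-III filaments, gave 2303 and 2687 on the arrays labelled PRL-1, against 1815, 1755 and 1923 on the vector arrays, a log2 difference of 0.44 ± 0.12. RELCH, an endosomal protein of cholesterol transport, gave 693 and 707 with PRL-1, against 512, 464 and 545 with vector, a difference of 0.47 ± 0.15, and 0.73 ± 0.22 in its other probe set. SLC66A2, a membrane protein with PQ-loop repeats, gave 742 and 778 with PRL-1, against 556, 536 and 655 with vector, a difference of 0.39 ± 0.15. In each of these 3 genes the lowest array labelled PRL-1 exceeded the highest vector array. ATP9B, a P4-type ATPase of the Golgi, gave 456 and 526 with PRL-1, against 435, 423 and 461 with vector, a difference of 0.16 ± 0.16. ATP8B1, a flippase of bile canaliculi whose loss causes cholestasis, gave 998 and 1924 with PRL-1, against 1137, 1059 and 2937 with vector, a difference of -0.14 ± 0.43. The groups overlapped in both, and ATP8B1 had the widest spread of the bright members, with vector replicate 3 and PRL-1 replicate 2 high. ATP8B1 was bright only through this probe set, which is of the _x_at type. Its remaining probe set was dim and gave 0.10 ± 0.26, also with overlapping groups.

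Of the 6 members of metabolism and mitochondria, 5 were bright, all above 0. CYB5A, cytochrome b5, an electron carrier of the endoplasmic reticulum, gave 3196 and 3328 on the arrays labelled PRL-1, against 1996, 2063 and 2117 on the vector arrays, a log2 difference of 0.66 ± 0.11. Its other bright probe sets gave 0.65 ± 0.11 and 0.58 ± 0.15, also with the groups apart. KDSR, the reductase of the second step of sphingolipid synthesis, gave 1775 and 1649.7 on the arrays labelled PRL-1, against 1177, 1107 and 977 on the vector arrays, a difference of 0.66 ± 0.13. The groups were apart in all 3 bright KDSR probe sets, the others giving 0.76 ± 0.14 and 0.68 ± 0.19. TIMM21, of the translocase of the mitochondrial inner membrane, gave 3299.5 and 3021 with PRL-1, against 2952, 2549 and 2015 with vector, a difference of 0.35 ± 0.16, and its other probe set 0.78 ± 0.25. RBFA, which helps the small subunit of the mitochondrial ribosome mature, gave 699 and 656 with PRL-1, against 654, 595 and 542 with vector, a difference of 0.19 ± 0.15. The groups were apart in both, but in RBFA only narrowly. CNDP2, a cytosolic dipeptidase, gave 1353 and 1247 with PRL-1, against 1131, 1259.6 and 908 with vector, a difference of 0.25 ± 0.16 with overlapping groups. DSEL, an epimerase of dermatan sulfate, was below 100 on every array.

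Among members of cell death, signalling and ubiquitin, 6 of 9 were bright and 4 of these lay above 0. PMAIP1 gave 15041 and 14288 on the arrays labelled PRL-1, against 9807, 9205 and 11645 on the vector arrays, a log2 difference of 0.53 ± 0.13, and 0.63 ± 0.11 in its other probe set, with the groups apart in both. BCL2 gave 259 and 299 on the arrays labelled PRL-1, against 214, 221 and 313 on the vector arrays, a difference of 0.18 ± 0.24. Vector replicate 3 was the highest of the 5 arrays for BCL2, and the groups overlapped. PHLPP1, a phosphatase of AKT, gave 1076 and 921 with PRL-1, against 774, 731 and 718 with vector, a difference of 0.43 ± 0.13. SOCS6, an adaptor that brings signalling proteins to ubiquitin ligases, gave 771 and 566 with PRL-1, against 442, 485 and 406 with vector, a difference of 0.58 ± 0.18, and 0.72 ± 0.23 in its other bright probe set. PHLPP1 and SOCS6 had their groups apart in these probe sets. NEDD4L, a ubiquitin ligase that lowers the epithelial sodium channel at the cell surface, gave 1055 and 1501 with PRL-1, against 1183, 1144 and 1489 with vector, a difference of -0.01 ± 0.18. Its other bright probe sets gave -0.33 ± 0.18 and -0.30 ± 0.27, the groups being apart with PRL-1 lower in the first of these only, and vector replicate 3 was the highest vector array in all 3.

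**Figure D2:**
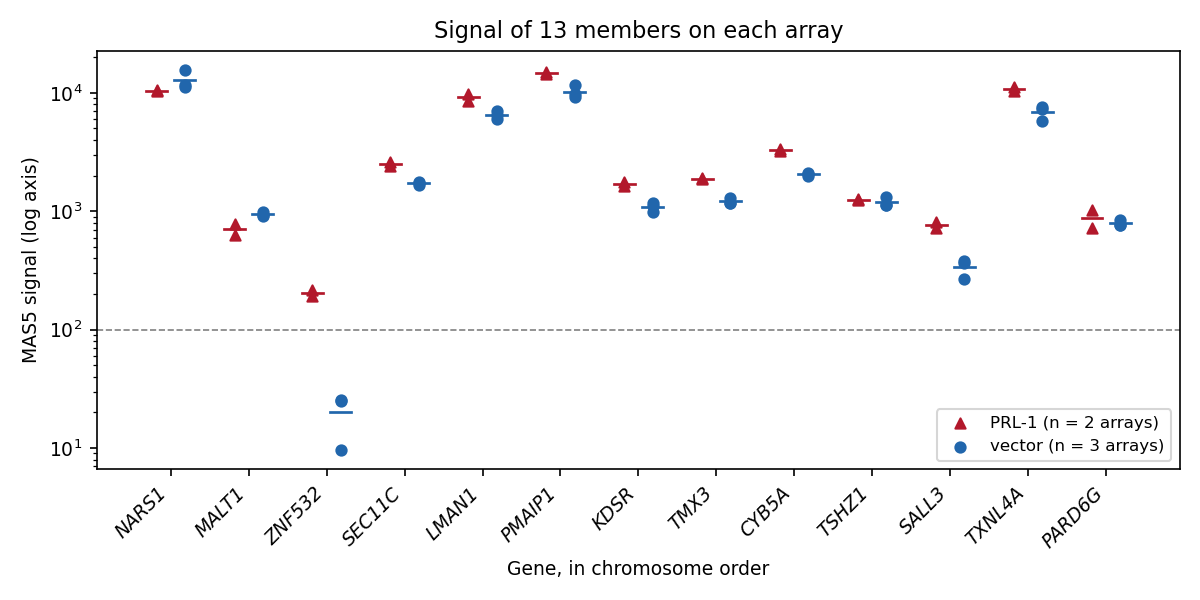
MAS5 signal (log axis) of the leading probe set of 13 members on each array, with arrays labelled PRL-1 as triangles, vector arrays as circles, means of each group as bars and the signal of 100 drawn dashed. ZNF532 has the vector arrays below the dashed line, MALT1 and NARS1 have PRL-1 lower, TSHZ1 and PARD6G overlap, and the other 8 have PRL-1 higher.

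Transcription and RNA factors formed the largest group, with 9 of 11 members bright and 8 of these above 0. SALL3, a zinc finger factor of limb and neural development in mice, gave 721 and 816 on the arrays labelled PRL-1, against 364, 384 and 269 on the vector arrays, a log2 difference of 1.20 ± 0.19 or 2.29-fold. Its other probe sets gave 0.94 ± 0.21, 1.22 ± 0.25 and 0.76 ± 0.28, and the groups were apart in all 4. TXNL4A, a component of the U5 snRNP of the spliceosome, gave 11129 and 10390.4 on the arrays labelled PRL-1, against 7331, 7609 and 5828 on the vector arrays, a difference of 0.65 ± 0.14, with 0.41 ± 0.16 in its other bright probe set. ADNP2, a homeobox and zinc finger protein, gave 2031 and 1704 with PRL-1, against 1252, 1316 and 1274 with vector, a difference of 0.54 ± 0.12, with 0.41 ± 0.14 in its other probe set. The groups were apart in each of these probe sets. ZNF407, a zinc finger protein, gave 646 and 602 with PRL-1, against 446, 371 and 333 with vector, a difference of 0.71 ± 0.17. ZCCHC2, a zinc knuckle protein of little known function, gave 1427 and 1387 with PRL-1, against 1024, 1201 and 693 with vector, a difference of 0.57 ± 0.21, and its other bright probe set 0.94 ± 0.20. Vector replicate 3 was the lowest array in the leading ZCCHC2 probe set but the highest vector array in the other.

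ZNF516, a zinc finger regulator of brown fat genes in mice, gave 397 and 379 with PRL-1, against 241, 280.2 and 327 with vector, a log2 difference of 0.47 ± 0.20. NFATC1, a calcium-dependent factor of T cells and osteoclasts, gave 382 and 454 with PRL-1, against 286, 256 and 365 with vector, a difference of 0.48 ± 0.21. Both had the groups apart by a small margin. TSHZ1 and ZNF236 were the members of this group near 0. TSHZ1, a teashirt zinc finger factor, gave 1268 and 1241 on the arrays labelled PRL-1, against 1315, 1125 and 1125 on the vector arrays, a difference of 0.08 ± 0.13 with a 95% interval of -0.21 to 0.37, and its other bright probe set gave 0.04 ± 0.14. ZNF236 gave 735 and 877 with PRL-1, against 601, 957 and 1039 with vector, a difference of -0.07 ± 0.23, with vector replicate 1 lowest of all arrays. The remaining ZNF236 probe set was dim and pointed the other way, at 0.27 ± 0.28 with overlapping groups. TSHZ1 thus overlapped in both probe sets although ZNF407 and ZNF516, the bright members on either side of it, did not overlap. CTDP1, a phosphatase of the tail of RNA polymerase II and dim by the limit of 8, gave 258 and 388 with PRL-1, against 221, 155 and 252 with vector, a difference of 0.62 ± 0.28.

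The centriole protein RTTN gave 1239 and 1323 on the arrays labelled PRL-1, against 882, 899 and 1095 on the vector arrays, a log2 difference of 0.42 ± 0.14, with the groups apart. Its other bright probe set gave -0.10 ± 0.18 with overlapping groups, the 1 bright probe set of 22 not leading their gene that had the opposite sign to the leading one. PARD6G, a scaffold of the cell polarity complex and the last member before the end of the arm, gave 724 and 1031 with PRL-1, against 772, 839 and 760.4 with vector, a difference of 0.13 ± 0.17. The arrays labelled PRL-1 lay on either side of the vector arrays for PARD6G.

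Of the 9 members that act at the surface or outside the cell, or that belong to nerve or immune cells, 3 were bright, all above 0. TNFRSF11A, the receptor RANK of osteoclast precursors, gave 877 and 851 on the arrays labelled PRL-1, against 609.5, 635 and 663 on the vector arrays, a log2 difference of 0.44 ± 0.13. Its other bright probe set gave 0.18 ± 0.21 with overlapping groups. MBP, whose classic products are proteins of myelin, gave 356 and 319.6 with PRL-1, against 186, 187 and 286 with vector, a difference of 0.65 ± 0.25, while its 8 other probe sets were dim and gave values from -0.20 to 0.56. CCBE1, which promotes processing of VEGF-C in lymphatic growth, gave 255 and 343 with PRL-1, against 188, 284 and 310.4 with vector, a difference of 0.21 ± 0.27 with overlapping groups.

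The dim members gave no common direction. The 12 had a median of -0.15, against -0.20 for all 9612 dim genes, with 5 above 0 and 7 below. Of these, 8 did not reach a signal of 100 on 2 arrays and were not tested, namely ALPK2, RNF152, CDH7, CDH19, DSEL, CD226, NETO1 and GALR1, the last a galanin receptor of neurons. The cadherins CDH7 and CDH19, the leukocyte receptor CD226, the kainate receptor partner NETO1, GALR1 and DSEL were under 100 on all 5 arrays in their leading probe sets. FBXO15, an F-box protein of embryonic stem cells in mice, gave 20.8 and 129.9 with PRL-1, against 15.9, 71.1 and 135 with vector, and CBLN2, a secreted organizer of synapses, gave 72.4 and 109 with PRL-1, against 155, 199 and 105 with vector. The groups overlapped in both. Signals of this size lie near background, so no order is read from them.

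Over all 128 probe sets of the members, of which 87 were tested, the differences spread less in bright probe sets than in dim ones. In the run from SEC11C to PARD6G the median was 0.16 over 45 probe sets with a mean log2 signal below 7, 0.20 over 18 from 7 to 8, 0.47 over 30 from 8 to 10 and 0.54 over 19 of 10 or more. In this last class all 19 lay above 0, from 0.04 to 0.66, and 16 had the groups apart with PRL-1 higher, whereas below 7 the values ran from -2.95 to 1.87. Probe sets of a gene share the RNA of their array and are not replicates. Of the 18 bright probe sets in this run that did not lead their gene, 17 lay above 0 and 14 had the groups apart with PRL-1 higher. Among bright leading probe sets of all genes, 17.1% had the groups apart with PRL-1 higher. No such share was computed for the class of 10 or more or for probe sets that do not lead. As this contrast chose the members, nothing is read from these counts.

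**Figure D3:**
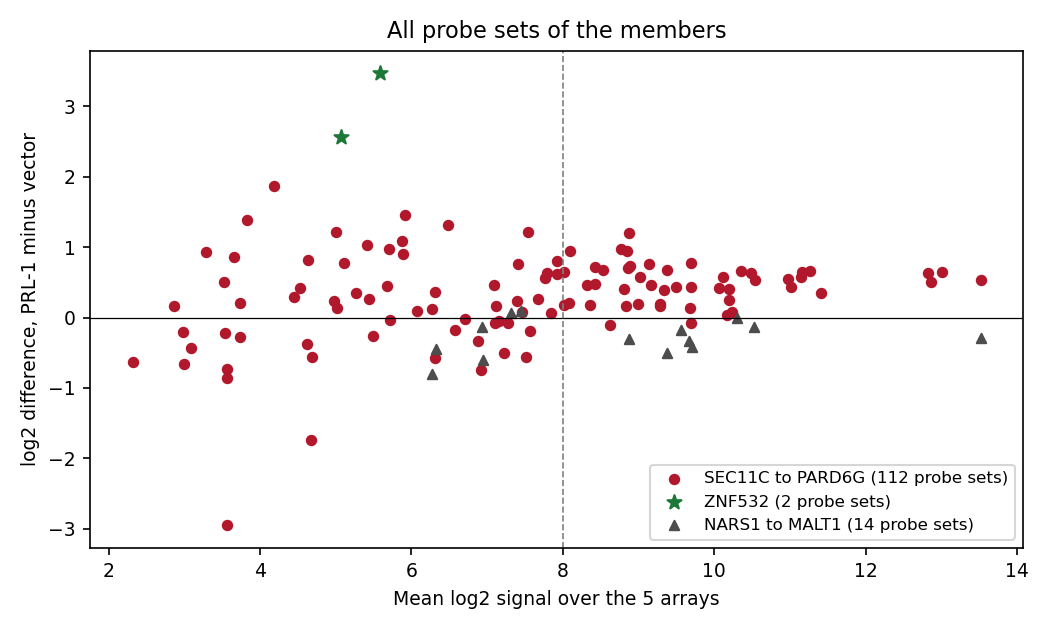
Log2 difference (PRL-1 minus vector) against the mean log2 signal over the 5 arrays, for all 128 probe sets of the members, with circles for SEC11C to PARD6G, stars for ZNF532, triangles for NARS1 to MALT1 and a dashed line at the brightness limit of 8. Right of the line the circles narrow to a band with medians of 0.47 and 0.54, while left of it they scatter on both sides of 0.

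In its median, though not in every gene, the run from SEC11C to PARD6G looked alike on the replicate arrays. Measured against the vector mean, the median of its 31 bright genes was 0.47 and 0.43 on PRL-1 replicates 1 and 2, against -0.03, 0.00 and 0.04 on vector replicates 1, 2 and 3. The 4 bright genes from NARS1 to MALT1 had medians of -0.27 and -0.03 with PRL-1, against -0.14, -0.13 and 0.27 with vector, so vector replicate 3 stood highest there. By the same measure all bright genes lay within 0.01 of 0 on every array. The part of vector replicate 3 in the values of NARS1 to MALT1 was not tested beyond leaving it out. Over the 35 bright members of both runs, leaving it out left 2 below 0 in place of 5, which include ZNF236. Leaving out PRL-1 replicate 1 also left 2, and leaving out PRL-1 replicate 2 gave 7. Those 7 include ZNF236 (-0.20), PARD6G (-0.13) and CCBE1 (-0.00) of the run from SEC11C to PARD6G. Without vector replicate 1, ZNF236 was at -0.31 and CCBE1 at -0.01.

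**Figure D4:**
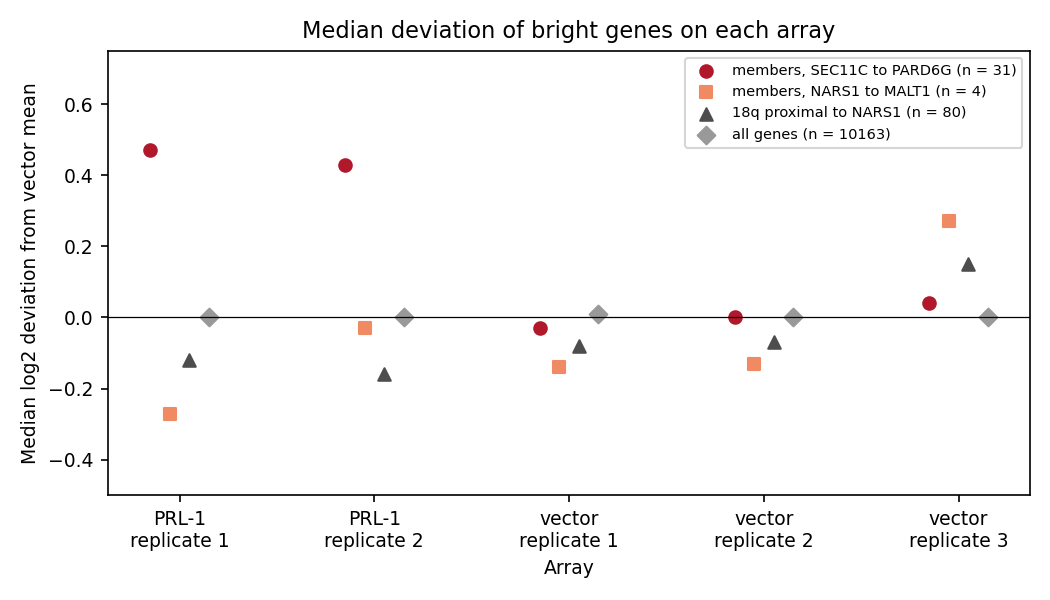
Median log2 deviation from the mean of the vector arrays on each array, for bright members in both runs, bright genes of 18q proximal to NARS1 and all bright genes. Circles (SEC11C to PARD6G) stand at 0.47 and 0.43 on the arrays labelled PRL-1 and between -0.03 and 0.04 on the vector arrays, while squares and dark triangles are highest on vector replicate 3.

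By position, the median was 0.43 over 16 bright genes from NARS1 to VPS4B, 0.58 over 3 from CDH7 to NETO1 and 0.43 over 16 from FBXO15 to PARD6G. The middle stretch held 9 members, of which 6 were dim. Genes of the same stretch that are not members were not chosen by name. The stretch was chosen by this same contrast on these arrays, so their values are no test of it. From SEC11C on, 5 of 42 such genes were bright, all above 0, with a median of 0.33 and a range of 0.17 to 0.35. They were PTGR3 (0.33), HSBP1L1 (0.33), SERPINB8 (0.18), the antisense transcript ZNF407-AS1 (0.35) and the pseudogene ACTBP9 (0.17), whose probe set may also detect its parent genes. The groups were apart only in PTGR3, where 17.1% of all bright genes had them apart with PRL-1 higher. The 37 dim nonmembers from SEC11C on had a median of -0.29, with 15 above 0 and 22 below, against -0.20 for all dim genes. ATP8B1-AS1, the bright nonmember before ZNF532, gave -0.54 with overlapping groups.

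Before NARS1 the medians lay below 0, with single genes on both sides. The 80 bright genes of 18q from ROCK1 to FECH had a median of -0.13, with 14 above 0, 1 with the groups apart and PRL-1 higher, and 33 apart with PRL-1 lower. Over all bright genes 48.9% lay above 0, and 17.1% were apart in each direction. The distance from these shares was not tested. The 48 bright genes of 18p had a median of -0.08. Vector replicate 3 was above the other arrays here as well, with a median deviation of 0.15 over the 80 genes, and without it their median was -0.06. The 6 bright genes nearest to NARS1 on this side were FECH (-0.03), ONECUT2 (-0.61), WDR7 (-0.26), TXNL1 (-0.22), TCF4 (0.14) and CCDC68 (-0.12). Over whole chromosomes the median of bright genes ran from -0.15 on chromosome 10 to 0.20 on chromosome 20, and that of chromosome 18 was -0.07 over 169 genes. Other stretches, rebuilt from their end genes in chromosome order and also chosen on these arrays, had bright medians of 0.32 over 188 genes on 3q (RIOX2 to MECOM), -0.32 over 104 on 15q (CALML4 to ZNF592) and 0.32 over 50 on 19q (ISOC2 to MZF1), and no difference between these stretches and distal 18q was tested.

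In the limma fit over 33818 probe sets, 0 of the 39 members tested through their leading probe set were called at adjusted p 0.05 in either direction, nor was any other member probe set, where 0.0591% of all tested probe sets were called higher and 0.133% lower. At an unadjusted p below 0.05, 22 members lay higher and 1 lower by limma, where 5.11% of the 14513 genes tested through their leading probe set lay higher and 6.32% lower. By the methods' t-test 16 lay higher and 1 lower, where 4.15% and 5.81% of those genes did, and 0 members passed after Benjamini-Hochberg adjustment. Without vector replicate 3, limma called 7 members higher through their leading probe sets, SEC11C, PMAIP1, KDSR, TMX3, CYB5A, SALL3 and TXNL4A. Of all 33818 tested probe sets, leading or not, 0.485% were called higher in that fit. No share was computed for leading probe sets alone. Leaving out any other array called 0 members. The contrast is the one by which the members were chosen, so these counts are a description.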

How the data were processed

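RNA of HEK293-PRL-1 (2 arrays) and HEK293-vector cultures (3 arrays) was hybridized to HG-U133 Plus 2.0 GeneChips. The intensity values that the authors deposited are MAS5 signals from the affy library at default settings. Every array had a mean of 500 once 2% of values were trimmed from either end. The medians were not equal. Over all probe sets but controls, the median signal was 165.9 on vector replicate 3 and 135.4 and 138.2 on vector replicates 1 and 2. On PRL-1 replicates 1 and 2 it was 124.2 and 143.4. MAS5 corrects each probe by its mismatch partner, which leaves dim signals imprecise. Of 54675 probe sets, 62 controls were left out, and a probe set was tested when it reached 100 on at least 2 arrays (33818). Probe sets with 1 symbol (41091) were named through the platform annotation, updated to the GRCh38.p14 gene table, which also gave the gene order. The genome build used for the array was not given in the sources used here, so no positions other than those of RefSeq windows are stated. Log2 signals were fitted with limma 3.58.1 in R 4.3.3 (eBayes with trend, group as the only term, two-sided), adjusted by Benjamini-Hochberg over all tested probe sets, with a call at 0.05. The fit was tested on simulated data. The number of arrays limits the precision, and read depth does not apply.

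All members are accounted for, with signals on every array for bright ones. Of the dim ones the text names those called, with a probe set pointing the other way or with a role a reader would look for, and ZNF532, CTDP1, FBXO15 and CBLN2, the 4 that passed the filter, were given in full after their values were seen. Outside the members it names the 6 bright genes nearest to NARS1 on the proximal side and bright nonmembers inside the stretch. Members, lists and the naming rule were chosen with earlier results of these data known. The labels give same-numbered arrays no tie beyond the number. Their deviations from the group means correlated at 0.064 and -0.0588. The deviations of the 2 PRL-1 arrays mirror each other by construction, so these values cannot settle whether a batch was shared. Alternatives were the filter, the brightness limit, the choice of probe set, median centring, quantile normalization, an offset of 32 before the log, the methods' t-test (on the probe sets tested here, not those with MAS5 presence calls that the study used), eBayes with no trend, the replicate number as a block and each array left out.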

Additional observations from a re-analysis of the deposited data

How the results depend on the processing

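The median log2 difference of bright members (0.44) lay between 0.39 and 0.48 under all alternatives run, and that of the bright 18q genes proximal to NARS1 (-0.13) between -0.18 and -0.06. For bright members from SEC11C to PARD6G (0.47), a run chosen after seeing the data, median centring gave 0.51, dropping _s_at and _x_at probe sets gave 0.43, and leaving out single arrays gave 0.42 to 0.48. For NARS1 to MALT1 (-0.21), a run likewise chosen, the median was -0.01 with the replicate block, -0.37 to -0.01 with single arrays left out and -0.33 to -0.17 otherwise. The number of bright members below 0 (5) was 2 with the replicate block and 2 to 7 with single arrays left out. The median of dim members (-0.15) was -0.02 with the log offset, 0.08 after quantile normalization, 0.05 with the replicate block, 0.29 with the mean of all tested probe sets, 0.25 with the brightness limit at 9 and -0.54 to 0.60 with single arrays left out, so it had no stable sign. The cause was not tested.

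The count of called probe sets on the whole array (65) was 448 with the replicate block, 9 without the trend, 0 by the methods' t-test at adjusted p 0.05 and at 0.10, and 11 to 313 with single arrays left out, fewest without PRL-1 replicate 1, the lone PRL-1 array then being taken to vary as the vector group does. At an unadjusted p below 0.05 limma had 3287 probe sets and the t-test 2905. The t-test was run here on the 33818 probe sets that passed the signal filter, whereas the study ran it on those with MAS5 presence calls, which were not used here, so its counts are not those of the study's procedure. Members called higher (0) numbered 8 with the replicate block and 0 to 7 with single arrays left out, and members called lower stayed at 0 throughout. The 448 probe sets called with the block are those of both directions, and the share called higher was not computed for that setting. Nothing is therefore read from the 8 members. The block leaves vector replicate 3 without a partner and so in effect without weight. Deviations of same-numbered arrays correlated only weakly, which cannot settle whether they shared a batch.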
